A study of Mus musculus with 15 samples.

Results

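Inhib_4 was 1 of the 12 inhibitory clusters that the authors defined in the mouse prefrontal cortex (PFC), and its leading gene was Vip, which encodes vasoactive intestinal peptide. Its members were taken as every retained cell that the deposited cell table assigns to this cluster. They numbered 119, of which 74 came from P60 and 45 from P21 mice, among 2153 inhibitory and 35360 retained cells.

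All mice were male C57BL/6N. The 12 P60 libraries (8 to 10 weeks in the sample labels) came from mice that self-administered cocaine or saline intravenously, and were taken when 15 days of maintenance had ended, after 48 h of withdrawal or after 15 days of withdrawal, with 2 libraries for each of these 6 groups. Saline libraries were 2 and 3 at maintenance, 5 and 7 at 48 h and 11 and 12 at 15 days. Cocaine libraries were 1 and 4, 6 and 8, and 9 and 10 at the same times. By the paper these mice received their catheters at P60, so the tissue was older than P60. It was older at 15 days of withdrawal than at the earlier times, and P60 is kept here as the name of the adult group. The 3 P21 libraries (3 weeks) came from mice without self-administration. Each library pooled 2 mice, and the methods give 4 mice for the 3 P21 libraries, so how those animals were divided is not known and P21 libraries may share them. The labels name the nucleus accumbens as the tissue, whereas the titles and the methods name the PFC.

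Cells were captured in droplets, and each captured mRNA molecule was counted once through its unique molecular identifier (UMI). A level is given here in CPM, a gene's UMIs over all UMIs of the cells summed, scaled in the usual way, with mitochondrial and ribosomal protein genes excluded. In such sums fewer cells that use a gene and less RNA of it per cell cannot be told apart unless single cells are given. The retained cells of a library held 8375172 to 42892922 UMIs, and the Inhib_4 cells together held 403479 at P60 and 160373 at P21 over the genes kept.

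Cortical Vip neurons are GABAergic interneurons born in the caudal ganglionic eminence. They mostly contact other interneurons, above all those that make somatostatin, and so release pyramidal cells from inhibition. They are commonly divided into cells with calretinin (Calb2) and cells with cholecystokinin (Cck), and some of the former also carry genes for choline uptake and acetylcholine synthesis.

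The cluster carried its marker. Vip (ENSMUSG00000019772, chromosome 10, 4698927 to 4707323, minus strand, NCBIM37) had at least 1 UMI in 68 of 74 P60 cells and in 41 of 45 P21 cells, that is 91.9% and 91.1%. The median cell held 95 Vip UMIs at P60 and 70 at P21, and the highest held 275 and 230. After reducing each cell at random to 2000 UMIs these shares came to 91.9% and 90.2%, while 0.647% and 0.770% of endothelial cells, which should lack the gene, held a Vip UMI. Median UMIs over the genes kept were 5151.5 and 3464 in Inhib_4 and 3871 and 3477 in endothelial cells, and cells under 2000, 4 of Inhib_4 at P21 and none at P60, were left out of the reduced shares. The 10 cells without Vip kept their place in the cluster, so the name describes most of the 119 cells and not each one.

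Vip was not unique to Inhib_4. Over pooled cells its level was 19297 CPM at P60 and 21438 CPM at P21, next to 17734 and 22733 CPM in Inhib_9. In Inhib_10 and Inhib_11 fewer cells held Vip, 48.4% and 55.3% at P60 and 40.6% and 83.8% at P21. At P60 the highest level was thus in Inhib_4, and at P21 in Inhib_9. No test was made of these or other differences between clusters, because the cells had been clustered on the same genes.

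**Figure D1:**
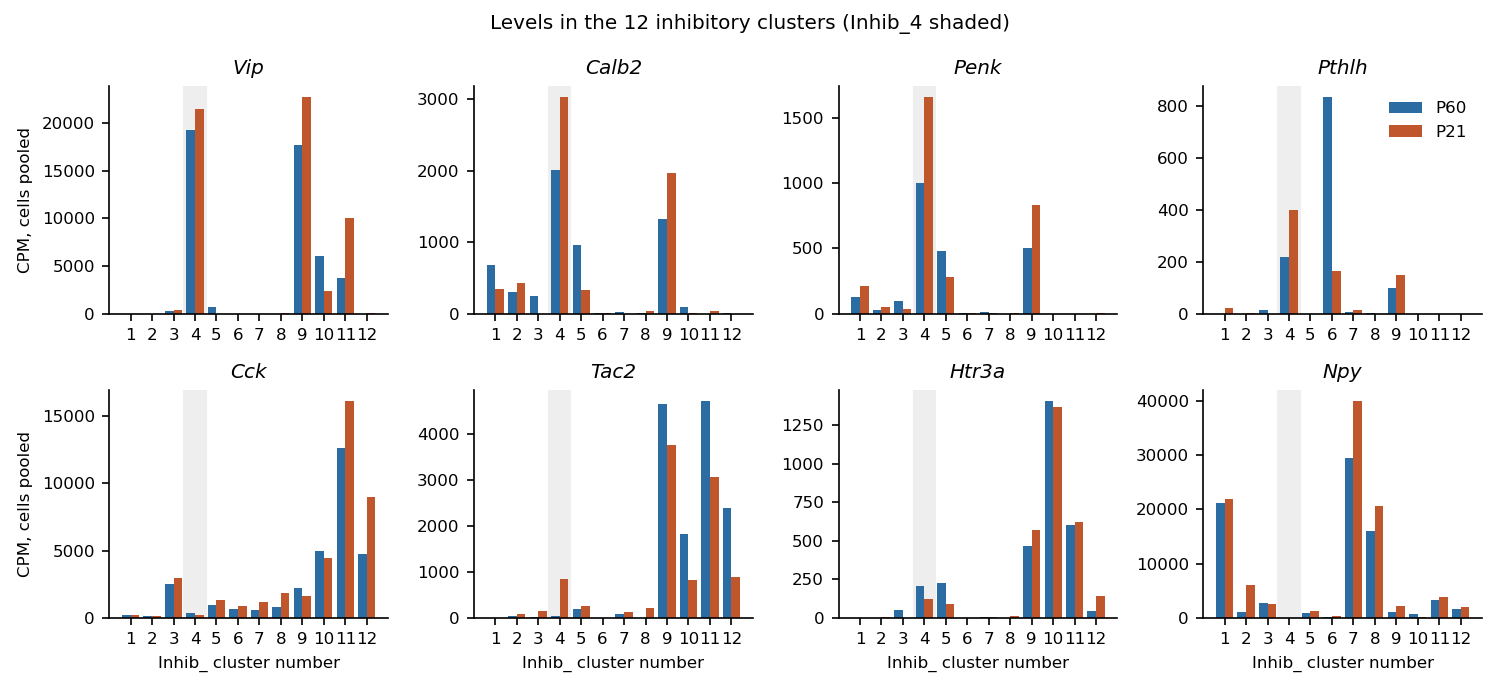
Levels (CPM, cells pooled, linear axes from 0) of 8 genes in the 12 inhibitory clusters at P60 and P21, with Inhib_4 shaded. Inhib_4 shared high Vip with Inhib_9 and had the highest Calb2 and Penk levels of the 12, while Cck, Tac2, Htr3a and Npy were higher in Inhib_9.

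The genes of the calcium buffer calretinin and of the opioid peptide precursor proenkephalin had their highest pooled levels in Inhib_4. Calb2 exceeded Inhib_9 by 1.51-fold at P60 and 1.54-fold at P21, and Penk by 1.99-fold at both ages. The Calb2 pool was uneven, with 235 UMIs in library 7, 102 of them in 1 cell, and at most 106 in any other P60 library. At each age the lowest libraries lay below the pooled Calb2 level of Inhib_9. Calb2 stood at 2012 CPM at P60 and 3030 CPM at P21, the highest level among the 12 clusters, against 1330 and 1963 CPM in Inhib_9. Penk stood at 1001 and 1659 CPM, also the highest, against 503 and 833 CPM in Inhib_9. Pthlh, which encodes a parathyroid hormone-like peptide, was at 221 and 399 CPM, and the transcription factor gene Prox1, a marker of this lineage, at 213 and 293 CPM.

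Cck was lower than in Inhib_9 and uneven between libraries. It was at 357 CPM at P60 and 168 CPM at P21 in Inhib_4, against 2198 and 1605 CPM in Inhib_9, and 34 of the 119 cells held a UMI. Of the 144 Cck UMIs at P60, 123 were in 12 of the 23 cells of libraries 9 and 10, and 21 were in 9 of the 51 cells of the other libraries, that is 955 against 76.4 CPM. The share of thinned cells with a Cck UMI was 16.2% and 26.8%, above the 7.76% and 17.1% of endothelial cells. Npy, the neuropeptide Y gene, was at 14.9 and 12.5 CPM, and thinned Inhib_4 cells held it in 1.35% and 4.88% of cases, no more than background at P60 and close to the 4.45% of endothelial cells at P21. Htr3a, the ionotropic serotonin receptor subunit that marks this lineage, was at 208 and 118 CPM, below the 569 CPM of Inhib_9 at P21.

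General inhibitory genes were present throughout. Gad1 and Gad2, the GABA-synthesizing enzymes, reached 1058 and 1294 CPM at P60 and 792 and 1060.0 CPM at P21. Of the 16 markers listed for other interneuron classes, 14 were among the listed genes, and their summed level was 104 CPM at P60 and 249 CPM at P21, against 19224 and 23959 CPM in the other inhibitory clusters. Crhbp, Lhx6 and Th had 0 UMIs at both ages, Pvalb and Tac1 at P60, and Chodl at P21. A count of 0 over the pooled cells allows a level of up to 7.44 CPM at P60 and 18.7 CPM at P21, taking 3 UMIs as the limit.

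Single cells showed how these genes were combined. Of the 119 cells, 81 held both Vip and Calb2, 84 both Vip and Penk, and 68 both Vip and Pthlh. Every cell with Pthlh also held Vip. Cck was found with Vip in 30 cells and with Calb2 in 21. Crh, the corticotropin-releasing hormone gene, was found with Vip in 31 cells. Because a cell of this depth misses many low transcripts, a cell without a UMI is not shown to lack the gene.

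**Figure D2:**
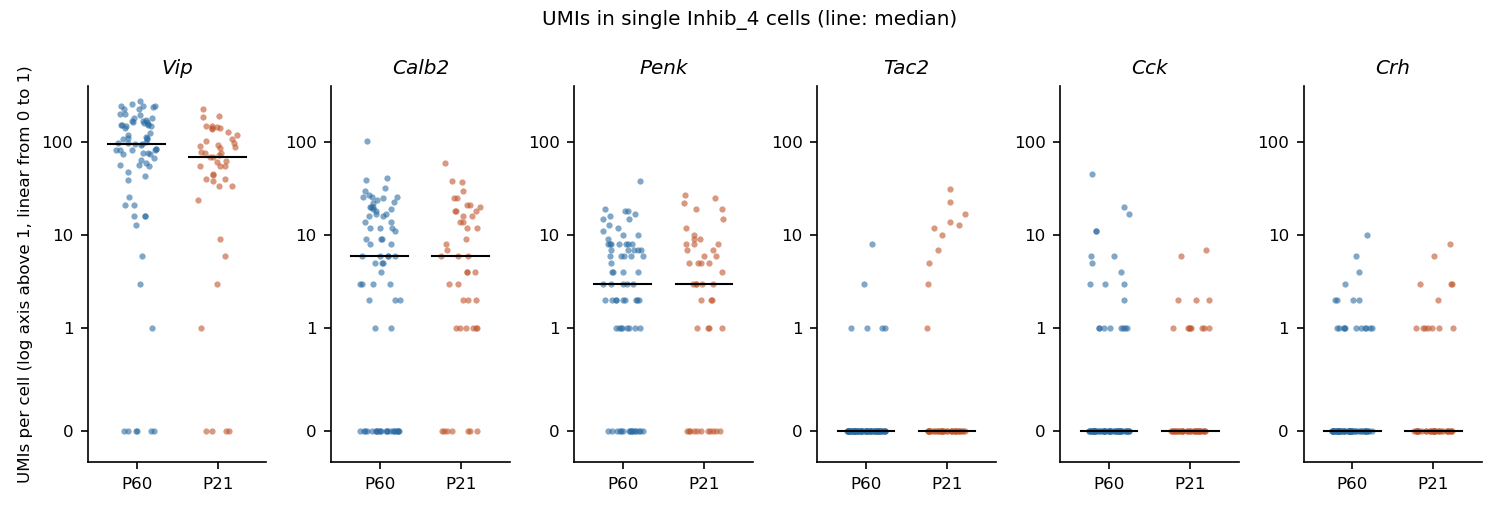
UMIs of 6 genes in each of the 74 P60 and 45 P21 Inhib_4 cells (points), with the median as a line, on an axis that is linear from 0 to 1 and logarithmic above. Vip spread from 0 in 10 of the 119 cells to medians of 95 UMIs at P60 and 70 at P21 and beyond, Calb2 and Penk spread from 0 upward with medians above 0, and Tac2, Cck and Crh had a median of 0.

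Of the choline genes, Slc5a7 was detected in part of the cluster. This high-affinity choline transporter was at 57.0 CPM at P60 and 131 CPM at P21, the highest of the 12 clusters, where the next was at 13.9 and 56.9 CPM. It was detected in 35 of the 119 cells, 33 of them with Vip. Thinned cells held it in 12.2% of cases at P60 and 26.8% at P21, against 0.0844% and 0.275% of endothelial cells. Chat, the acetylcholine-synthesizing enzyme, had 1 UMI in each of 4 cells, 3 of which also held Slc5a7, and 0 in endothelial cells, too few to describe a share.

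The genes that set Inhib_4 apart most from every other inhibitory cluster did so by modest ratios. Among 2813 genes of at least 50 CPM in Inhib_4 at both ages, 138 were highest there at both. For the ratios, the level of each other cluster was set to no less than 3 UMIs. By these ratios 3 genes exceeded every other cluster by over 2-fold at both ages, namely Ostf1, Slc5a7 and Tacc2. Of the leading 15, Msrb2 and Sostdc1 also did so against measured levels (99.8 against 36.6 CPM and 87.3 against 40.6 CPM at P21). Their ratios were lowered by the limit in Inhib_3, which had 12 cells at P21. Ostf1, named for osteoclast stimulation, was at 66.9 and 143 CPM, against 27.2 and 61.0 CPM in the next cluster. The smaller of both ages' ratios was 2.35 for Ostf1, 2.30 for Slc5a7 and 2.08 for Tacc2, and then 1.99 for Penk. The remaining genes of the leading 15 were Nrp1, Msrb2, Gpd1, Hs6st2, Pou3f4, Sostdc1, Calb2, Dync1i1, Ogt, Igsf3 and Ccdc91, down to a ratio of 1.46. Some ratios rested on few molecules, as for Slc5a7 with at most 7 UMIs in a P60 library and 14 in a P21 library. How many genes another cluster would yield by the same rule was not counted.

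This order depended on how cells were weighted. With cells thinned to 2000 UMIs, 9 of these 15 genes were again among the leading 15, with saline libraries alone at P60 also 9, and with a mean over cells 11. Only cells with a Vip UMI gave 13 of the 15. The number of genes over 2-fold above every other cluster at both ages, 3 as described, was 4 with thinned cells, 2 with saline libraries alone, 2 with a mean over cells and 5 with Vip cells. In Ostf1, 36.4% of the searched stretches of the transcript end had a near-identical copy elsewhere in the genome, so its reads may be split or shared, and for Slc5a7 none was found.

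Inhib_9 was the nearest cluster by Vip, and both were set side by side. Higher in Inhib_4 were the transcription factor genes Pbx3 (89.2 against 12.4 CPM at P60, 99.8 against 16.3 CPM at P21) and Id3 (186 against 6.18 CPM, 181 against 44.7 CPM). Npy2r, a receptor of neuropeptide Y, was at 104 and 181 CPM in Inhib_4 and at 11.1 and 40.6 CPM in Inhib_9. Grin3a, an NMDA receptor subunit gene, was at 79.3 and 162 CPM against 16.1 and 20.3 CPM. Nnat, an imprinted gene of young neurons, was at 258 and 767 CPM against 26.0 and 126 CPM. Ifi27l1, Nrp1, Mgat4c, Rab3b and Sgk1 completed the 10 genes with the largest ratios.

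The genes higher in Inhib_9 were led by peptides and a chemokine. Npy was at 1022 and 2199 CPM there, against 6 UMIs at P60 and 2 at P21 in all Inhib_4 cells. Cck was 6.16-fold and 9.54-fold higher, and the chemokine gene Cxcl14 6.14-fold and 8.89-fold. Tac2, which encodes neurokinin B, was 125-fold higher at P60 and 4.44-fold at P21. Enpp2, Nov, Pcp4, Serpine2, Sparcl1 and Ppapdc1a completed the list. Of these 10 genes Tac2 had the most unequal ratio between ages, which is taken up with the age comparison.

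Inhib_4 cells were small in RNA. The median cell held 5734 UMIs and 2404 genes at P60 and 3890 UMIs and 1959 genes at P21, the third and the second lowest median UMIs of the 12 clusters. Library by library, for libraries with at least 5 cells, the median UMIs per cell were 3916 ± 917 at P21 (SD, n = 3) and 5764 ± 961 in saline P60 (n = 4), a difference of -1848 with an exact permutation p of 0.0571 (two-sided), where 0.0286 is the smallest that these 35 splits allow. Median genes per cell were 1856 ± 350.4 against 2466 ± 275 and mitochondrial UMIs 3.76% ± 0.740 against 2.29% ± 0.114, each with an exact permutation p of 0.0286. Shallower P21 cells and a higher mitochondrial share thus stood beside every age comparison below, and their part in it was not tested.

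Every library but 1 held cells of the cluster. At P21 there were 6 of 290, 21 of 301 and 18 of 371 inhibitory cells, that is 2.07%, 6.98% and 4.85%. The saline P60 libraries 2, 3, 5, 7, 11 and 12 held 4 of 19, 0 of 28, 7 of 59, 9 of 109, 8 of 204 and 7 of 144, and taking 3 cells as the limit the 0 allows a share of up to 10.7% (its exact 95% interval reached 12.3%). The cocaine libraries 1, 4, 6, 8, 9 and 10 held 5 of 34, 4 of 48, 1 of 31, 6 of 152, 10 of 218 and 13 of 145. The wide spread was in the libraries with few inhibitory cells, and the 21.1% of library 2 had an exact 95% binomial interval from 6.05% to 45.6%. All such intervals cover counting error only.

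The share of Inhib_4 did not differ detectably between groups. It was 4.63% ± 2.46 at P21 (SD, n = 3) and 8.33% ± 7.42 in saline P60 (n = 6), a difference of -3.69 percentage points with an exact permutation p of 0.476 (two-sided, 84 splits). In cocaine libraries it was 7.29% ± 4.33 (n = 6), a difference from saline of -1.03 points with an exact permutation p of 0.796 over 216 regroupings within time points. The difference between ages turned positive, 0.180 points of all retained cells, when these were the denominator, and that between treatments was 1.51 points without library 2.

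**Figure D3:**
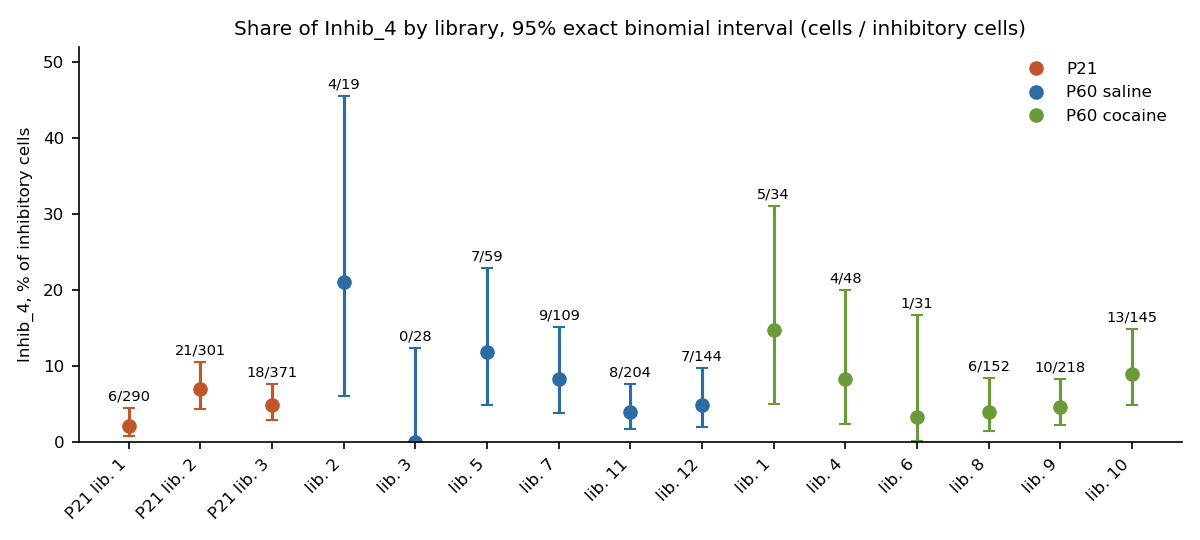
Share of Inhib_4 among the inhibitory cells of each library (percent), with exact 95% binomial intervals and the cell numbers above them. The shares of the P21, saline and cocaine libraries overlapped. The interval of P21 library 1 ended at 4.45%, below those of libraries 1, 2, 5 and 10, and the library with the highest share, 21.1%, had 19 inhibitory cells.

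P21 and saline P60 were compared in Inhib_4 with the UMIs of its cells summed per library. These were the 3 P21 libraries (6, 21 and 18 cells) and the 4 saline P60 libraries with at least 5 cells (5, 7, 11 and 12, with 7, 9, 8 and 7 cells). By the methods the saline mice were food restricted, food trained and catheterized before they self-administered saline. The P21 mice had no self-administration, so age and this procedure cannot be told apart. Of 962 genes tested with edgeR, 38 (3.95%) passed both thresholds, an adjusted p (Benjamini-Hochberg) below 0.05 with a change over 1.5-fold, 15 (1.56%) higher and 23 (2.39%) lower at P60. The median change over all tested genes was 0.01 on the log2 scale. The count rested on single libraries, with 12 genes called without P21 library 3 and 13 without library 7, and DESeq2 called 17. P21 libraries may share mice, and the count was also lower with P21 libraries 2 and 3 summed as 1, as the last section gives. The sources used here do not say whether P21 and P60 libraries were prepared together, and the methods chose the correlation that names P21 cells so as to limit an effect of unlike sequencing technologies without saying which data these were. A part of preparation or sequencing in the age changes was not tested. P21 cells were named by the authors through their correlation with P60 clusters, so a change in which cells fell into Inhib_4 and a change within its cells cannot be told apart either.

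The defining peptide did not change detectably. P21 cells had been placed in Inhib_4 by their likeness to the P60 cluster, so a like level of its leading gene may be built in. Vip was at 19319, 23081 and 19867 CPM in the P21 libraries and at 22611, 20295, 22919 and 16535 CPM in the saline libraries, so the groups overlapped. Its log2 change was -0.03 ± 0.17 (SE) with an edgeR adjusted p of 0.953. Calb2 ranged from 1065 to 4251 CPM at P21 and from 1318 to 5058 CPM at P60, a change of -0.11 ± 0.67 (adjusted p 0.953). For Calb2 the spread between libraries of 1 age was several-fold, so only a very large change could have been called.

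Penk was the one peptide gene called. Of 27 listed neuropeptide and secretory genes 9 were tested, 1 fell and 8 were not called, beside 3.95% called over all tested genes. Their median log2 change was -0.52, against 0.01 over all tested genes. Penk was at 1658, 1473 and 1956 CPM at P21 and at 791, 689, 1357 and 559 CPM in the saline libraries. All P21 values lay above all saline values, and the log2 change was -1.01 ± 0.24 (adjusted p 0.0112). The adult cocaine libraries 1, 8, 9 and 10, which were not in the test, stood at 592, 1855, 1231 and 935 CPM, so 1 of them lay in the P21 range. With all P60 libraries of at least 5 cells the change was -0.77 (adjusted p 0.124). Pthlh went the same way without being called (462.7, 423 and 329 CPM against 264, 237, 201 and 89.4 CPM, adjusted p 0.0847).

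Of the 27 listed neuronal maturation genes 15 were tested, and Nnat, Marcks and Gap43 fell. None rose and 12 were not called, beside 3.95% called over all tested genes, and the median log2 change was -0.37 against 0.01. Nnat fell by 1.57 ± 0.30 on the log2 scale (adjusted p 0.00175), from 463, 676 and 1065 CPM to 293, 323, 302 and 112 CPM. Marcks, a substrate of protein kinase C at the membrane, fell by 1.21 ± 0.32 (adjusted p 0.0299), from 424, 435 and 523 CPM to 205, 258, 176 and 156 CPM. Gap43, a growth cone protein gene, fell by 0.78 ± 0.22 (adjusted p 0.0358), from 1234, 1981 and 1433 CPM to 1113, 861, 754 and 1006 CPM. In all 3 the saline libraries lay below the P21 libraries. The groups did not overlap in 35 of the 37 called genes with a unique symbol either, so this is no result about the list. How often groups were separate over all tested genes, called or not, was not counted. Of 14 alternative settings Nnat was called in 13, Marcks in 7 and Gap43 in 4, and DESeq2 did not call Marcks (adjusted p 0.0885) or Gap43 (adjusted p 0.0618). Here and below, 1 of these settings only drops the fold cutoff, so every gene called in the main age fit passes it in advance.

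Single genes fell in other lists. Cadm1, a synaptic adhesion molecule, fell by 1.07 ± 0.28 (adjusted p 0.0299), from 578, 604 and 717 CPM to 264, 279.8, 201 and 447 CPM, and was the 1 gene called among 6 tested of 20 listed. Cnr1, the cannabinoid receptor, fell by 0.90 ± 0.24 (adjusted p 0.0316), from 733, 761 and 775 CPM to 498, 387, 402 and 357.5 CPM, and was the 1 called of 2 tested modulator receptors, the other being Htr3a. Cnr1 was also the 1 gene called among the 8 tested Vip neuron markers, 7 of which had a negative change. Beside the 3.95% called over all tested genes, 1 call in lists of this size is no result about the lists. Cadm1 and Cnr1 were each called in 5 of 14 alternative settings. Of 5 tested genes of the GABA machinery and of 8 heat shock genes none was called. Gad1 had a change of 0.53 ± 0.24 (adjusted p 0.226).

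The 12 genes with the largest falls among those whose libraries did not overlap had varied roles. Cox5a, a cytochrome c oxidase subunit, was at 1003, 447 and 523 CPM at P21 and at 117, 21.5, 101 and 179 CPM in the saline libraries, a log2 change of -2.52 ± 0.41 (adjusted p 0.000262). Ndufab1, which serves complex I and lipoylation, fell by 2.30 ± 0.37, Serf1 by 2.03 ± 0.38, Arxes2 by 1.71 ± 0.37 and Atxn7l3b by 1.54 ± 0.32. Brp44, a mitochondrial pyruvate carrier subunit, fell by 1.36 ± 0.33 and Fkbp1a, the FK506-binding protein, by 1.34 ± 0.32. Ppdpf fell by 1.302, Klc1 fell by 1.25 and Tspan13 fell by 1.18. In all 12, Nnat and Marcks included, the P21 libraries lay entirely above the saline libraries, as the choice of genes required. Of 14 alternative settings Ndufab1 and Serf1 were called in 13, Brp44 in 8 and Ppdpf in 4.

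For some of them adult libraries did not share a common level. Cox5a was at 553 and 509 CPM in the cocaine libraries 9 and 10, inside the P21 range, and at 45.6 and 134 CPM in the cocaine libraries 1 and 8. Other inhibitory cells of libraries 9 and 10 also stood high for Cox5a, at 792 and 658 CPM, against 122 to 302 CPM in the 4 saline libraries. With all P60 libraries of at least 5 cells Cox5a changed by -1.33 (adjusted p 0.332), and with libraries under 10 cells pooled within a treatment by -0.70 (adjusted p 0.767). This pooled fit left out P21 library 1, with 6 cells, and held 2 P21 units, 1 saline unit and 3 cocaine units. In that last fit Ndufab1 was at -1.02 (adjusted p 0.168), Brp44 at -0.81, Ppdpf at -0.56, Atxn7l3b at -0.37 and Fkbp1a at -0.35, and none of these was called. Serf1 did not show this, with 53.5 to 134 CPM in the cocaine libraries against 347, 362 and 561 CPM at P21.

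The 11 named genes higher at P60 also had varied roles. Sc4mol, a sterol C4-methyl oxidase gene, rose by 2.34 ± 0.55 (adjusted p 0.0112), from 116, 60.4 and 19.4 CPM to 439, 237, 151 and 380 CPM. Fdps, the farnesyl diphosphate synthase, rose by 1.26 ± 0.35 (adjusted p 0.0316), from 193, 145 and 174 CPM to 381, 516, 302 and 379.9 CPM. Ass1, argininosuccinate synthase, rose by 2.09 ± 0.59, Anp32a by 1.39 ± 0.32 and Faim2, an inhibitor of Fas-mediated cell death, by 1.29 ± 0.27. The RNA-binding protein genes Srsf3, Rbm3 and Ncl rose by 1.16, 1.07 and 0.96. Of 14 alternative settings Srsf3 and Ncl were called in 5, Rbm3 in 4 and Fdps in 7, and Ass1 was called in 5 of the 13 that tested it. DESeq2 called none of these 5 genes (adjusted p 0.0618 to 0.0891).

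The remaining risers had high levels. Snhg11, a noncoding host transcript of neurons, went from 3856, 2814 and 2033 CPM to 4833, 5682, 6232 and 5028 CPM, a log2 change of 0.92 ± 0.20 (adjusted p 0.00697). Ckb, brain creatine kinase, rose by 0.77 ± 0.21 to 2138, 2152, 2161 and 3061 CPM. Fau, which encodes a ribosomal protein fused to a ubiquitin-like domain, rose by 0.83. The 11 named risers were chosen among called genes whose groups did not overlap, so their separation was built in. Of the 37 called genes with a unique symbol, in both directions, 35 did not overlap. The share over all tested genes was not counted. Near-identical copies of the transcript end were found elsewhere in the genome for 7 of the 11 risers and 7 of the 12 genes that fell, over 100% of the stretches searched in Fdps and Fau, 90.9% in Ass1 and 81.8% in Ckb, so counts of these genes are uncertain.

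**Figure D4:**
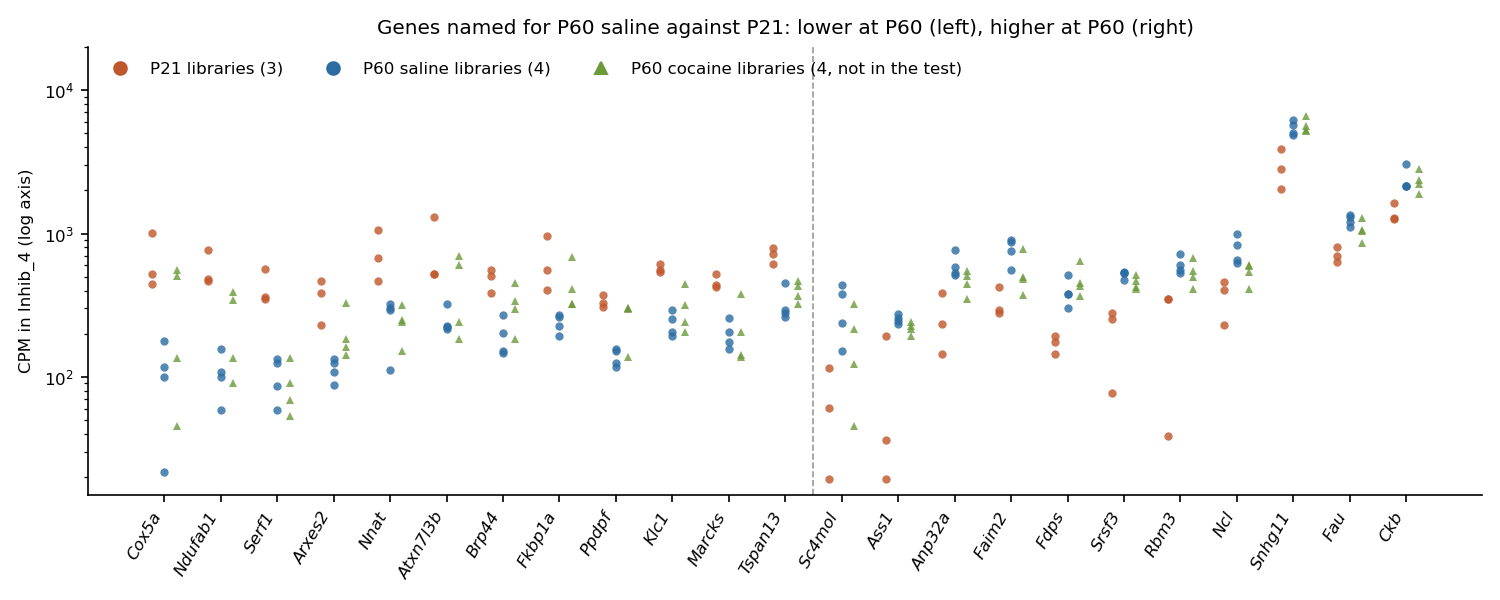
Levels in Inhib_4 (CPM, log axis) of the 23 genes named for P60 saline against P21, as points for the 3 P21 and 4 saline libraries and triangles for the 4 cocaine libraries that were not in the test. The genes were chosen among called genes whose P21 and saline libraries did not overlap, so these points separate by choice. The cocaine libraries 9 and 10 lie near P21 for Cox5a, at 553 and 509 CPM.

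Marker genes of other cells varied between the same libraries. Of the 8 astrocyte markers 3 were tested and 1 was called, beside 3.95% called over all tested genes, which is no result about the list. This gene, Clu, rose by 1.17 ± 0.34 (adjusted p 0.0455), with overlapping groups (424, 266 and 116 CPM against 381, 517, 528 and 782 CPM) and a call in 4 of 14 alternative settings. The summed level of the 8 astrocyte markers was 586 to 5117 CPM in the saline libraries and 619.6 to 1041 CPM at P21, with Gja1 and Aqp4 at 0 at P21. In library 12, the highest, Aldoc made 1899 CPM of this sum from 85 UMIs in 6 of the 7 cells, Apoe 1140 CPM from 51 UMIs in 3 cells, and Slc1a2 and Clu 782 CPM each in 6 cells. In the other saline libraries Apoe was at 0 to 50.3 CPM. The summed level of the 8 vascular markers was 469 to 3396 CPM in saline libraries, the highest again in library 12, and 652 to 1026 CPM at P21. The part of these cells' RNA in the calls was not tested, and the authors had removed doublets before they deposited the cell table.

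Whether any of this was particular to Inhib_4 was tested as the difference between its age change and that of all other inhibitory cells in the same libraries. These other cells, 917 at P21 and 485 in saline, were made up of different clusters at each age. Inhib_2 was 37.2% of them at P21 and 8.66% in saline, Inhib_6 17.7% and 4.54%, Inhib_7 8.29% and 39.4%, and Inhib_9 6.87% and 12.6%, so a change within the other clusters and a change in their shares cannot be told apart in this test. Of 5333 genes 12 (0.225%) were called by edgeR, 2 (0.0375%) with a more positive and 10 (0.188%) with a more negative change in Inhib_4. DESeq2 called 1, Tac2, and edgeR called 3 without library 5 or P21 library 3 and 4 without library 11. None of the 38 genes called in Inhib_4 was among them. For the 23 named age genes the lowest adjusted p of this difference was 0.588, so their age change was not shown to differ from that of other inhibitory neurons. Cox5a, for example, was at 1535, 733 and 648 CPM in the other inhibitory cells at P21 and at 131, 147, 122 and 302 CPM in the saline libraries.

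Tac2 had the most negative difference of the 12 called genes, and its values ran in opposite directions. The P60 cells had been clustered on expression, and Tac2 was 125-fold higher in Inhib_9 than in Inhib_4 there. P21 cells were named by correlation with the P60 clusters, so low Tac2 may be built into Inhib_4 at P60 more than at P21. The p-values below cannot tell such a choice of cells from a change within them. In Inhib_4 it was at 269.9, 1184 and 600.3 CPM at P21 and at 29.3, 0, 201 and 67.03 CPM in the saline libraries, all below P21. In the other inhibitory cells of the same libraries it was at 319.8, 614 and 357 CPM at P21 and at 535, 666, 913 and 866 CPM in saline, with 1 overlap. The difference between both changes was -4.12 ± 0.35 on the log2 scale with an edgeR adjusted p of 1.88e-27. With DESeq2 it was -4.19 with a wider SE of 0.92 and an adjusted p of 0.0267. It was called in 13 of 13 alternatives, between -5.41 and -3.66. The change within Inhib_4 alone was -3.34 ± 0.79 and was not called (adjusted p 0.0823), but it was called in 6 of 14 alternatives, whose edgeR or DESeq2 adjusted p ranged from 4.30e-12 to 0.186. Of the Tac2 UMIs of the other cells, 36.5% at P21 and 56.0% in saline were in Inhib_9, whose share of these cells was higher in saline, and its own level was 3764 CPM at P21 and 5551 CPM in saline.

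The Tac2 counts came from few cells. At P21 11 of 45 Inhib_4 cells held 136 Tac2 UMIs, with a median of 12 and at most 31 per positive cell. By library, 1 cell of P21 library 1 held 7, 6 cells of library 2 held 98 and 4 cells of library 3 held 31. At P60 6 of 74 cells held 15, of which 8 were in 1 cell of library 11. After thinning the shares were 26.8% at P21 and 4.05% at P60, with 0.110% and 0.0281% in endothelial cells.

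Other genes of the 11 Tac2 cells of P21 are given as a description. The cells were chosen by their Tac2 count after the values were seen, and all had been placed in Inhib_4 by the expression of such genes, so a likeness to the rest of the cluster was built in and no test was made. They held 36870 UMIs in all, so that 27.1 CPM was 1 UMI. Calb2 was at 2875 CPM in them and at 3077 CPM in the 34 other P21 cells, Cck at 136 and 178 CPM, Htr3a at 108 and 121 CPM and Npy at 27.1 and 8.10 CPM. Inhib_9 at P21 had 1963, 1605, 569 and 2199 CPM of the same genes. Npy2r stood at 298 CPM in the Tac2 cells and 146 CPM in the others, against 40.6 CPM in Inhib_9. Penk stood at 1112 and 1822 CPM, against 833 CPM in Inhib_9, and Nnat at 379.7 and 883 CPM, against 126 CPM. Of 25 genes compared in this way, most of them chosen for their ratio between the clusters, the Tac2 cells differed from the other Inhib_4 cells toward Inhib_9 in 14 and away from it in 11. Several rested on a few molecules, with 1 UMI of Npy, 2 of Pbx3 and 5 each of Cck and Cxcl14 in the Tac2 cells. In Inhib_9 itself 50 of 63 P21 and 137 of 145 P60 cells held Tac2.

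**Figure D5:**
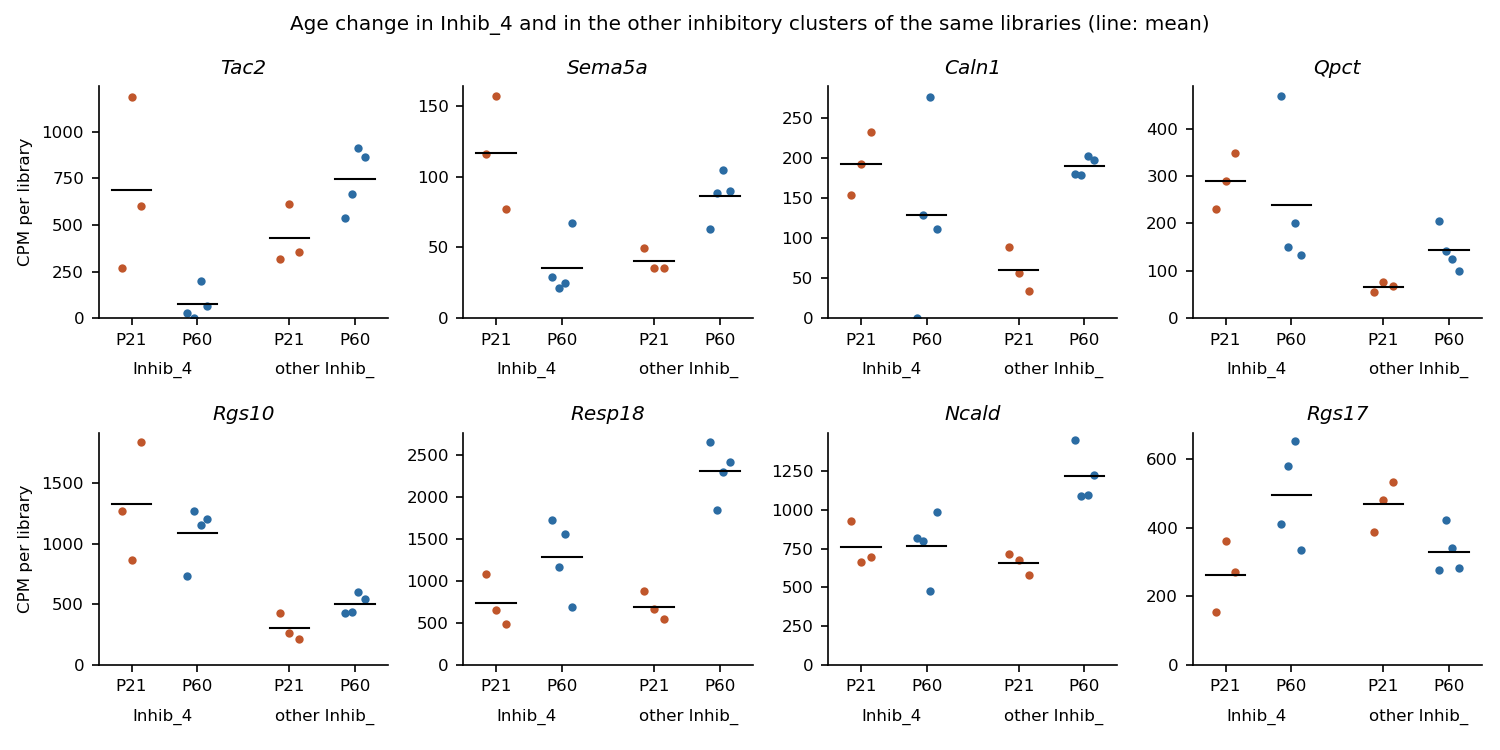
Levels (CPM per library, linear axes from 0, line at the mean) of 8 genes in Inhib_4 and in the other inhibitory cells of the 3 P21 and 4 saline P60 libraries. Tac2 was lower at P60 in Inhib_4 and higher in the other cells, and for Resp18 and Ncald the change was larger in the other cells, of which Inhib_9 was 6.87% at P21 and 12.6% in saline.

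In several other called genes the pooled values of the other inhibitory cells, with their changed make-up, differed more between ages than those of Inhib_4. Caln1, a calcium-sensor-like gene, was in them at 34.6 to 89.0 CPM at P21 and at 179 to 204 CPM in saline, while in Inhib_4 it was at 154, 193 and 232 CPM and then at 0, 129, 276 and 112 CPM (difference -2.42 ± 0.45, adjusted p 0.000235). Resp18, a secretory granule gene, was at 546 to 872 CPM and then 1842 to 2658 CPM in the others, and in Inhib_4 at 1080, 652 and 484 CPM and then at 1728, 1162, 1558 and 693 CPM (-0.95 ± 0.21, adjusted p 0.00649). Rgs10, a regulator of G protein signalling, was at 1273, 869.6 and 1840 CPM and then at 732, 1269.8, 1156 and 1207 CPM in Inhib_4, and had means of 302 and 503 CPM in the others (-1.09 ± 0.23, adjusted p 0.00380). Of 13 alternatives Caln1 was called in 10, Rgs10 in 7 and Resp18 in 3. The ages were not tested against each other within the other cells.

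Against Inhib_9 and Inhib_10 alone most of these calls were lost. With these clusters in place of all other inhibitory clusters, 3 genes were called, of which Tac2 was shared (-3.97, adjusted p 4.52e-18), and the others were Zbtb20 (2.17) and Dpysl2 (1.10). Caln1 was then at 0.080 and Rgs10 at 0.22, on the other side of 0. Ncald had a difference of -0.89 ± 0.23 (adjusted p 0.0464) and Qpct, a glutaminyl cyclase, of -1.49 ± 0.38 (adjusted p 0.0423). Of 13 alternatives Ncald was called in 1 and Qpct in 0. Fgf13 (-2.28), Arpp21 (-1.99) and Nfix (-1.22) were also called but had overlapping groups. In choosing genes of this term, overlap was judged on each library's ratio of Inhib_4 to the other inhibitory cells, with 10 CPM added to both levels. The Inhib_4 levels by themselves overlapped between ages for Caln1 and Rgs10 as well.

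Sema5a and Rgs5 rested on very few molecules. Sema5a, an axon guidance gene, was at 116, 157 and 77.5 CPM at P21 and at 29.3, 21.5, 25.1 and 67.03 CPM in saline, that is 1, 1, 1 and 3 UMIs (-3.00 ± 0.69, adjusted p 0.0112). Rgs5, a pericyte marker, had 0 UMIs at P21, and 19 UMIs in 3 cells of library 12 against 1 to 2 in the other saline libraries, so no fold is given. Rgs17 had the more positive change (1.27 ± 0.31, adjusted p 0.0309), from 154, 362 and 271 CPM to 410.1, 581, 653 and 335 CPM with 1 overlap, while in the others it went from a mean of 468 to 331 CPM. It was called in 4 of 13 alternatives.

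Cocaine self-administration was compared with saline in the 8 adult libraries with at least 5 Inhib_4 cells, cocaine 1, 8, 9 and 10 and saline 5, 7, 11 and 12. Time points were not matched, because maintenance was present with cocaine only. Of 805 genes none (0%) was called by edgeR, 38 had an unadjusted p below 0.05, and the median log2 change was -0.01. DESeq2 also called none, and without a filter on low counts edgeR called 1, Crh. With 48 h and 15 days alone and time as a term no gene was called. At 15 days alone, with 2 libraries against 2, 1 of 1067 genes (0.0937%) was called, Cck, and without the Inhib_4 cell that held the most UMIs 2 of 1071 (0.187%), Cck and Nap1l5.

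The genes with the smallest p-values are given as not called. Ly6h, a GPI-anchored protein gene, was at 912, 1237, 1463 and 1293 CPM after cocaine and at 674, 667, 729 and 827 CPM after saline, a log2 difference of 0.78 ± 0.21 (adjusted p 0.474), and the groups did not overlap. Nap1l5 was at 4284, 4005, 4623 and 4841 CPM and at 3954, 2540, 2739 and 2748 CPM (0.57 ± 0.16, adjusted p 0.474). At 15 days alone Nap1l5 was not called either (0.74 ± 0.16, adjusted p 0.228), though it was without that cell (0.88 ± 0.15, adjusted p 0.0317). Hspa8, a constitutive heat shock protein gene, was at 2598, 2500.0, 2820 and 2737 CPM and at 3632, 3487, 3267 and 3329 CPM (-0.37 ± 0.14, adjusted p 0.922). Gabbr1, Fkbp1a and Ank2 were higher, and Eif4a2, A330076H08Rik, Faim2 and Cd81 lower, each with an adjusted p of 0.922. Near-identical copies elsewhere were found for 86.7% of the searched stretches of Hspa8, 80.6% of Eif4a2 and 65% of Fkbp1a, so their counts are uncertain. None was found for Ly6h, Nap1l5, Gabbr1, Ank2, Faim2 and Cd81, and A330076H08Rik was not searched.

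Of the peptide genes, Vip was at 15769, 22903, 21810 and 16449.6 CPM after cocaine, overlapping the saline range of 16535 to 22919 CPM. Crh, the gene called without a filter (log2 difference 3.68 ± 0.74, edgeR adjusted p 0.00823), had 1, 5, 10 and 20 UMIs in the cocaine and 2, 0, 0 and 0 UMIs in the saline libraries, and 20, 8 and 4 UMIs in the P21 libraries. Cck was at 0, 188, 839 and 1045 CPM after cocaine and at 29.3, 0, 101 and 112 CPM after saline. In library 10, 45 of the 76 Cck UMIs were in 1 cell of 15206 UMIs, where the next deepest Inhib_4 cell of any library held 8453, and without this cell the library's level was 539 CPM. Library 10 also had the highest summed level of the 9 excitatory neuron markers, 674 CPM against 143 to 352 CPM in the other 7 libraries, and their part in the Cck level was not tested. At 15 days alone the log2 difference of Cck was 3.08 ± 0.36 (edgeR adjusted p 0.00175), and without the deep cell 2.64 ± 0.44 (adjusted p 0.0317). The other inhibitory cells of libraries 9 and 10 also stood high for Cck, at 3959 and 4422 CPM, against 404 and 2174 CPM in those of libraries 11 and 12. Whether the Cck of Inhib_4 followed treatment or a wider difference of these libraries cannot be told apart. Crh was not limited to 15 days, with 5 UMIs in library 8 of 48 h and 4 in library 4 of maintenance, which was not in the test.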

How the data were processed

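The authors dissociated PFC tissue, captured single cells with 10x Genomics droplets, and aligned reads to mm9 and counted UMIs with Cell Ranger. What they deposited for the 15 libraries are unnormalized UMI counts of 26145 genes per cell, and a cell table, made with Seurat, with the class, the cluster and the mitochondrial share (a fraction) of each retained cell. The authors had filtered low-quality cells and doublets, which was not repeated. Joined expression tables were not used, and 0 columns of other samples were present.

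After removal of 13 mitochondrial and 143 ribosomal protein genes 25989 remained. Inhib_4 shared 0 barcodes between libraries, and at most 27 retained cells' barcodes were shared by 2 libraries. The authors' class was astrocyte for 1 Inhib_4 cell of library 9. Positions and copies come from GENCODE on NCBIM37, the build of the files. Stretches of 90 bases from the last 400 bases of a transcript were aligned with minimap2 2.31-r1302, and at least 95% identity elsewhere counted as a copy.

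UMIs were summed per library over Inhib_4 cells. The design asked for libraries of at least 10 cells with smaller ones pooled, which left 1 saline unit of 35 cells and could not be fitted. Every library of at least 5 cells without pooling, listed beforehand as an alternative, was used instead, and libraries 2, 3, 4 and 6 were left out of gene tests. Quasi-likelihood tests were made with edgeR 4.0.16 (R 4.3.3, limma 3.58.1), with TMM scaling, the package's filter for low counts and robust dispersion, and a call needed a Benjamini-Hochberg adjusted p under 0.05 and over 1.5-fold. The age by cluster term was tested with the library as a block. The SE given with an edgeR log2 change is its size divided by the square root of the test's F statistic. Shares and depth were compared by exact permutation over libraries, two-sided (python 3.11.15, numpy 2.4.6, pandas 2.3.3, scipy 1.17.1; plots with matplotlib 3.10.9). Libraries are pools of mice, and p-values measure the spread between them.

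On simulated counts 200 genes were changed by 1 or 2 on the log2 scale. The age fit recovered 57.5% and 95.5% of them over 962 genes, the cocaine fit 65% and 98.5% over 805, and the age by cluster fit 1.5% and 42% over 5333. In each fit 200 was far above the 38, 0 and 12 genes called in the data. The threshold on adjusted p eases as more genes change, so these shares may overstate recovery in the data. They cannot be compared between fits of such unlike size.

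Members and gene lists were chosen with earlier results of these data known. Named were genes of the lists, up to 12 called genes with the largest change in each direction whose libraries do not overlap (the 5 with the smallest p where under 5 were called), the 15 with the highest ratio to the next cluster, and the 10 with the largest ratio to or from Inhib_9, at 50 CPM or more. 1 gene picked in this way is not reported here. Fgf13, Arpp21 and Nfix, the Tac2 cells, and the Cck level without the deepest cell were chosen after their values were seen. Alternatives changed the tool (DESeq2 1.42.0), scaling, filter, fold cutoff, denominator, compared clusters and libraries. Those with all P60 libraries of at least 5 cells, with the time point as a term, for 15 days alone with and without the deepest cell, without the cell of astrocyte class, with cells that hold Vip, and for depth with a library left out were chosen after seeing the data.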

Additional observations from a re-analysis of the deposited data

Results flagged for a closer look

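Among 148 groups of libraries examined, 15 had 1 library far from the other 3 of its group, where chance gives about 1 in 20. In the saline libraries, library 5 stood apart for Crh (58.6 CPM), Npas1 (29.3 CPM), Atxn7l3b (322 CPM) and Nap1l5 (3954 CPM), library 7 for Srsf3 (473.5 CPM) and library 11 for Tspan13 (452 CPM). In library 5 Crh had 2 UMIs and Npas1 1 UMI, against 0 in libraries 7, 11 and 12. Beside such counts of 0 any single UMI is flagged, so the rate of 1 in 20 does not apply to these genes. Library 12 stood apart for Ckb (3061 CPM), Nnat (112 CPM), Rgs5 (425 CPM), Apoe (1140 CPM) and Sema5a (67.03 CPM). In the cocaine libraries, library 1 stood apart for Cnr1 (501 CPM) and Ppdpf (137 CPM), and library 9 for Pthlh (375 CPM) and Apoe (1749 CPM).

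In 12 genes the age change differed between Inhib_4 and the other inhibitory clusters by a test of the difference (edgeR, age by cluster term). The difference on the log2 scale was -4.12 for Tac2, -3.00 for Sema5a, -2.42 for Caln1, -2.28 for Fgf13, -1.99 for Arpp21, -1.49 for Qpct, -1.22 for Nfix, -1.09 for Rgs10, -0.95 for Resp18 and -0.89 for Ncald, and it was 1.27 for Rgs17. For Rgs5 the fit gave 9.25, which is no measure of size because the P21 libraries held 0 UMIs.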

How the results depend on the processing

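Against 38 genes called for age, DESeq2 called 17, no filter on low counts gave 13, and P21 libraries 2 and 3 summed as 1 gave 14. Leaving out each library gave 12 to 43, the lowest without P21 library 3 (12), library 7 (13), library 5 (20), library 11 (23) and P21 library 2 (24). All P60 units of at least 10 cells gave 40, of which 17 were shared, and all P60 libraries of at least 5 cells gave 31, of which 21 were shared. For cocaine, no filter gave 1 gene (Crh), 15 days alone 1 (Cck) and 15 days without the deepest cell 2 (Cck and Nap1l5), leaving out each library 0 to 0, and the other alternatives run 0. Against 12 genes for the age by cluster term, DESeq2 gave 1, no filter 7, Inhib_9 and Inhib_10 as compared clusters 3, all P60 units 20 and the P21 sum 4. Leaving out each library gave 3 to 12, with 3 without library 5 or P21 library 3, 4 without library 11 and 7 without P21 library 1 or 2.

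The share difference between ages was 0.180 and 0.115 points over all retained cells and over all neurons, and it ranged from -5.36 to -1.15 as libraries were left out. That between treatments ranged from -2.70 to 1.51, the last without library 2, and the depth difference from -2176 to -1324 UMIs. Genes over 2-fold above every other cluster, by the ratios with the limit of 3 UMIs, were 3 in the report. They numbered 4 in thinned cells, 2 with saline alone or a mean over cells and 5 in cells with Vip. With a library left out, the age change of Vip ranged from -0.080 to 0.046 and that of Calb2 from -0.65 to 0.40, both above 0 without library 12 or P21 library 2 and Calb2 also without library 11. The difference in age change of Apoe, not called, ranged from -0.55 (without library 12) to 2.73, and Caln1 (0.080) and Rgs10 (0.22) reversed against Inhib_9 and Inhib_10. The causes were not tested. Over the named genes, 309 values for age kept their direction and call, 144 lost the call, 6 gained one and 5 reversed, and for the age by cluster term 78, 64, 5 and 3. Fits of libraries of at least 10 cells, for 15 days too, could not be made, since no saline library had 10 cells. No paired analysis was possible because replicate numbers name no shared animals, litters or days and the retained libraries of the groups do not share a full set of numbers.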
